A study of Mus musculus with 6 samples.

Results

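Transcript levels of 10 heat shock proteins and cochaperones were compared in mouse T cells after co-culture with cisplatin-pretreated or buffer-treated ovarian cancer cells. The members were taken by gene name from the deposited table, and all 10 of them were found among its 54532 genes. They are *Hspa1a* and *Hspa1b* (inducible HSP70), *Hsph1* (HSP110), *Hsp90aa1* (inducible HSP90), *Dnajb1* (HSP40), *Hspb1* and *Hspb8* (small heat shock proteins), *Hspd1* and *Hspe1* (the mitochondrial chaperonin) and *Bag3* (a BAG-domain cochaperone). The T cells were splenic pan-T cells of C57BL/6 mice aged 6 to 8 weeks, cultured with IL-2 at 10 ng/mL. They were activated for 72 h with anti-CD3/28 beads before they met ID8 cells, a mouse ovarian cancer line. In 3 libraries the ID8 cells had been pretreated with 40 µM cisplatin (cisplatin), and in 3 libraries with PBS (control). The drug was thus given to the ID8 cells before the T cells were added, and all 6 libraries are of T cells that had been in culture with ID8 cells. The study's text speaks of biological replicates and independent samples, but it and the labels do not tell whether these were separate mice or separate cultures, so p-values measure only the spread between these libraries.

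Heat shock proteins are chaperones, which bind unfolded proteins and help them to fold, to stay soluble or to be degraded. Small heat shock proteins hold unfolded clients, HSP70 folds them with the help of HSP40 partners and of exchange factors such as HSP110 and BAG proteins, and HSP90 matures signalling proteins, among them kinases used in T cells. BAG3 joins HSPB8 to HSP70 and steers clients to selective autophagy. HSP60 (*Hspd1*) and HSP10 (*Hspe1*) form the folding chamber of the mitochondrial matrix. The transcription of many of these genes is driven by heat shock factor 1, which binds repeats of the element nGAAn in alternating orientation near the gene start.

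Promoter sequence is shown for members with the largest differences and for those that hold such repeats. RefSeq promoter windows of GRCm38.p6, from 250 bases before to 50 after each start, were found for 9 of the 10 members (12 windows), and *Hsp90aa1* had none. A long and a short motif were searched on both strands. The 3-repeat motif was GAANNTTCNNGAA, with its reverse complement TTCNNGAANNTTC. The 2-repeat motif was GAANNTTC or TTCNNGAA, each of which is its own reverse complement, and every 3-repeat match holds 2-repeat matches. Of all 32851 windows, 0.603% held the 3-repeat motif and 15.1% the 2-repeat motif. Of the 9 members, 3 held the 3-repeat motif (*Hspd1*, *Hspe1* and *Hsph1*) and 8 the 2-repeat motif, and *Dnajb1* held neither. In *Hspb8* and *Bag3* the 2-repeat match lay after the start, outside the stretch printed here. The following stretches are on the strand of the gene, with 2-repeat and 3-repeat matches in capitals. The first 4 are the 150 bases before the start of *Hspb8* (chr5:116422865-116423014, minus strand), *Hspb1* (chr5:135887769-135887918, plus strand), *Bag3* (chr7:128523433-128523582, plus strand) and *Hspa1b* (chr17:34959239-34959388, minus strand). The 150 bases before *Hspa1a* were identical to those of *Hspa1b* at 149 positions. *Hspd1* and *Hspe1* lie head to head. *Hspd1* had 2 windows, and one of its starts lies 215 bases from that of *Hspe1*. The 30 bases printed for the pair (chr1:55088053-55088082, plus strand) lie between these starts and hold 2 overlapping 3-repeat matches, 72 bases from the *Hspe1* start and 127 from this *Hspd1* start. The other *Hspd1* start lies past the *Hspe1* start, its window held 0 matches, and all 30 bases are annotated as exon of the longer *Hspd1* gene model. The site printed for *Hsph1* lies after its start (chr5:149636288-149636300, minus strand), and all 13 bases are annotated as exon.
Hspb8: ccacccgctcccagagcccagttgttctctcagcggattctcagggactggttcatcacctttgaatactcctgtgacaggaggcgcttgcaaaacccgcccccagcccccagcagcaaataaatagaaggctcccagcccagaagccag
Hspb1: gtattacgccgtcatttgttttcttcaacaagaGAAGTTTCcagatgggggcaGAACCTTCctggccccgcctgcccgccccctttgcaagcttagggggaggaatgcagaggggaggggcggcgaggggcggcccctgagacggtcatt
Bag3: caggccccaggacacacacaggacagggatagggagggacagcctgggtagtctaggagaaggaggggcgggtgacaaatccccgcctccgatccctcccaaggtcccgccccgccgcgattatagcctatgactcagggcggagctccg
Hspa1b: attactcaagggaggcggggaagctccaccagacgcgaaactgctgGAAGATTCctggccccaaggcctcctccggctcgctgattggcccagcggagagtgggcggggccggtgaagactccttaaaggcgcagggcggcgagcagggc
Hspd1 and Hspe1: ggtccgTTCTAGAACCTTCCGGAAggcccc
Hsph1: TTCTGGAAAGTTC

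Levels are given in FPKM as deposited, the number of fragments scaled to gene length and to a size term for each library. This term was not the plain number of reads on genes, as the processing section describes. The libraries held 30606569 to 32169496 reads on genes. Groups were compared on log2(FPKM + 0.1) by limma over the 15874 genes that averaged 0.5 FPKM or more, and this scale shrinks the fold changes of low genes. A gene passed where its p-value, adjusted by Benjamini-Hochberg, lay under 0.05, and was called if it also differed by at least 2-fold. The T-cell markers were all present, and the sum of 18 of them was 1382 to 1479 FPKM in the control and 2166 to 2233 FPKM in the cisplatin libraries. Markers of other cells were present too. The sum of 18 ID8 tumour-cell markers was 1635 to 1713 FPKM in the control and 243 to 249 FPKM in the cisplatin libraries, and all 18 had a lower mean with cisplatin. Of these, *Krt7* and *Igfbp5* had means under 0.5 FPKM, and 0 markers of any list were at 0 in all libraries. The sum of 10 B-cell markers was 1684 to 1768 FPKM in the control and 3620 to 3696 FPKM in the cisplatin libraries, and that of 11 myeloid markers was 125 to 131 and 161 to 184 FPKM. Of these, 10 of 10 B-cell and 9 of 11 myeloid markers had a higher mean with cisplatin. A sum follows its most abundant markers. The median log2 fold change was 0.55 for the T-cell, 0.61 for the B-cell and 1.35 for the myeloid markers. By calls, 1 B-cell and 7 myeloid markers were higher (4.11% of all tested genes were). In the other direction, 2 myeloid markers passed as lower (29.0% of all). In such mixed RNA, fewer cells of a type and less RNA per cell cannot be told apart.

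The members did not move as a block. *Hspb8*, *Hspb1* and *Bag3* fell by more than 2-fold with cisplatin-pretreated ID8 cells, and *Hsp90aa1* and *Dnajb1* fell by less. *Hsph1*, *Hspd1* and *Hspe1* rose on the FPKM as deposited, but after centring on the T-cell markers *Hspd1* fell, and *Hsph1* and *Hspe1* had small negative log2 fold changes that did not pass. Of the 10 members, 9 reached the minimum level. Of these 9, 5 passed as lower (29.0% of all tested genes did) and 3 passed as higher (27.5% of all). The called members were 3 lower (12.8% of all tested genes) and 0 higher (4.11% of all). There were also 0 members at least 2-fold higher at an unadjusted p-value under 0.05 by limma, a threshold at which all genes were not counted. By limma's voom on rebuilt reads 0 were called higher, beside 1127 of the 18541 genes in that fit. At such shares 0 among so few members says little. The values of both groups did not overlap for 5 lower members (32.3% of all tested genes) and 3 higher ones (31.9% of all). The median log2 fold change of the 9 members was -0.47, with a range from -3.35 to 0.52, and that of all tested genes was 0.03. After centring on the T-cell markers 7 members passed as lower (65.1% of all tested genes did) and 0 as higher (5.02% of all), and 5 were called lower (22.8% of all) and 0 higher (0.926% of all).

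**Figure D1:**
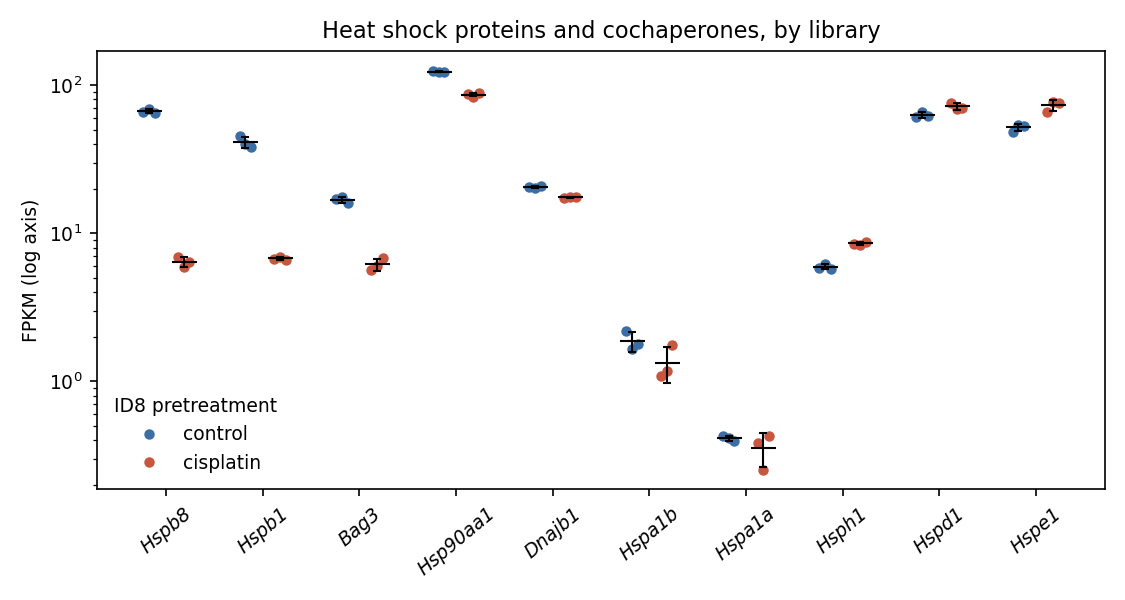
FPKM (log axis) of each of the 10 genes in the 3 control (blue) and 3 cisplatin (red) libraries. Points are libraries, black bars are means with SD. *Hspb8*, *Hspb1* and *Bag3* show the widest gaps between groups, and the *Hspa1b* and *Hspa1a* points of both groups overlap.

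*Hspb8*, which partners BAG3, showed the largest difference of the 10 members. Its level was 65.5, 69.0 and 65.0 FPKM in the control libraries and 6.92, 5.96 and 6.42 FPKM in the cisplatin libraries. Every cisplatin library thus lay far below every control library. Means (SD, n = 3) were 66.5 ± 2.21 FPKM in the control and 6.44 ± 0.483 FPKM in the cisplatin libraries, which is 9.68% of the control. The log2 fold change was -3.35 ± 0.06 (SE, limma adjusted p = 1.2e-07). It was -3.91 after centring on the T-cell markers.

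*Hspb1* (HSP27, also called HSP25 in the mouse) is a small heat shock protein that also binds the actin cytoskeleton. It had 45.4, 39.7 and 38.4 FPKM in the control and 6.74, 6.91 and 6.64 FPKM in the cisplatin libraries. The groups were again fully apart, and the cisplatin libraries lay close together. Means (SD, n = 3) were 41.2 ± 3.72 FPKM in the control and 6.76 ± 0.133 FPKM in the cisplatin libraries, with a log2 fold change of -2.58 ± 0.07 (SE, limma adjusted p = 3.9e-07). Within each library the log2 ratio of *Hspb1* to *Hspb8*, which does not rest on the scaling between libraries, was -0.69 ± 0.144 in the control and 0.07 ± 0.126 in the cisplatin libraries (SD, n = 3 each). *Hspb8* thus stood above *Hspb1* in every control library, while in the cisplatin libraries they lay close to each other. The ratio differed by 0.77 between the groups without overlap (two-sided exact permutation test, p = 0.1, the smallest that 3 libraries against 3 allow, and 0.15 after adjustment over 6 ratios).

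*Bag3*, the cochaperone that links HSPB8 with HSP70, had 17.0, 17.5 and 16.0 FPKM in the control and 5.61, 6.05 and 6.79 FPKM in the cisplatin libraries. Its groups did not overlap either, with a smaller gap than for both small heat shock proteins. Means (SD, n = 3) were 16.8 ± 0.765 FPKM in the control and 6.15 ± 0.598 FPKM in the cisplatin libraries, with a log2 fold change of -1.44 ± 0.08 (SE, limma adjusted p = 9.4e-06). After centring on the T-cell markers the log2 fold changes were -1.99 for *Bag3* and -3.14 for *Hspb1*. Beside these 3 falls stand the 16 ID8 markers that reached the minimum level. All 16 were called lower, with a median log2 fold change of -2.37 and a range from -3.61 to -1.15. The part of the ID8 transcripts in the falls of *Hspb8*, *Hspb1* and *Bag3* was not tested.

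Among cytosolic chaperones of the HSP90 and HSP40 families the differences were smaller. *Hsp90aa1* had 125, 123 and 122 FPKM in the control and 86.6, 83.7 and 88.1 FPKM in the cisplatin libraries. It was the most abundant member in both groups, and the groups did not overlap. Means (SD, n = 3) were 123 ± 1.56 FPKM in the control and 86.1 ± 2.27 FPKM in the cisplatin libraries, with a log2 fold change of -0.52 ± 0.03 (SE, limma adjusted p = 1.4e-05). After centring on the T-cell markers the log2 fold change was -1.07, which passes the 2-fold minimum. The constitutive partner *Hsp90ab1* fell as well, from 780 ± 14.5 to 602 ± 10.3 FPKM (mean ± SD, n = 3), with a log2 fold change of -0.37 (limma adjusted p = 9.4e-05). The log2 ratio of *Hsp90aa1* to *Hsp90ab1* was -2.66 ± 0.0340 in the control and -2.80 ± 0.0384 in the cisplatin libraries (SD, n = 3 each), without overlap (two-sided exact permutation test, p = 0.1, adjusted p = 0.15). The inducible form was thus the lower of the pair throughout, and its share was lower still with cisplatin in these libraries.

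*Dnajb1*, an HSP40 that hands clients to HSP70, had 20.4, 20.2 and 20.9 FPKM in the control and 17.3, 17.5 and 17.5 FPKM in the cisplatin libraries. The spread within each group was small and the groups did not overlap. Its log2 fold change was -0.23 ± 0.03 (SE, limma adjusted p = 8.8e-04), -0.14 after quantile normalization and -0.79 after centring on the T-cell markers. The related *Dnaja1* fell by a like amount, from 22.7 ± 0.511 to 19.2 ± 0.807 FPKM (SD, n = 3 each; log2 fold change -0.24, limma adjusted p = 0.0029). The log2 ratio of *Dnajb1* to *Dnaja1* was -0.14 ± 0.0112 in the control and -0.14 ± 0.0526 in the cisplatin libraries (SD, n = 3 each), and the groups overlapped (two-sided exact permutation test, p = 1). The sign of this ratio's difference turned when cisplatin replicate 1 or 2 was left out.

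The inducible HSP70 genes were the least abundant members. *Hspa1b* had 2.19, 1.64 and 1.79 FPKM in the control and 1.08, 1.18 and 1.75 FPKM in the cisplatin libraries. One cisplatin library lay within the control range, so the groups overlapped. The log2 fold change was -0.47 ± 0.21 (SE, limma adjusted p = 0.097). In 14 alternative settings *Hspa1b* did not pass either (limma adjusted p = 0.092 to 0.25). It passed without cisplatin replicate 3 (-0.67, limma adjusted p = 0.024) and after centring on the T-cell markers (-1.03, limma adjusted p = 0.0040). The centring lowers every gene alike, and 65.1% of all tested genes passed as lower there. *Hspa1a* had 0.427, 0.416 and 0.395 FPKM in the control and 0.385, 0.254 and 0.426 FPKM in the cisplatin libraries, or 25 to 41 reads in each library. It stayed below the minimum of 0.5 FPKM. In the fit without that minimum (33456 genes) its log2 fold change was -0.19 ± 0.31 (SE, limma adjusted p = 0.71), so no difference was detectable at this depth. *Hspa1a* and *Hspa1b* encode nearly the same protein. Of the 100-base windows of the longest *Hspa1a* transcript, 47.1% also occur in *Hspa1b*, so reads can be shared and the split between both genes is uncertain.

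The constitutive HSP70 gene *Hspa8* was far more abundant and rose, from 398 ± 2.52 to 474 ± 0.298 FPKM (SD, n = 3 each) with a log2 fold change of 0.25 (limma adjusted p = 2.3e-04), which was -0.31 after centring on the T-cell markers. The log2 ratio of *Hspa1a* plus *Hspa1b* to *Hspa8* was -7.39 ± 0.164 in the control and -8.07 ± 0.320 in the cisplatin libraries (SD, n = 3 each). The groups did not overlap, with a difference of -0.68 (two-sided exact permutation test, p = 0.1, adjusted p = 0.15). The log2 ratio of *Hspa1a* to *Hspa1b* was -1.94 ± 0.181 and -1.65 ± 0.320 (SD, n = 3 each), and there the groups overlapped (two-sided exact permutation test, p = 0.3, adjusted p = 0.36).

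**Figure D2:**
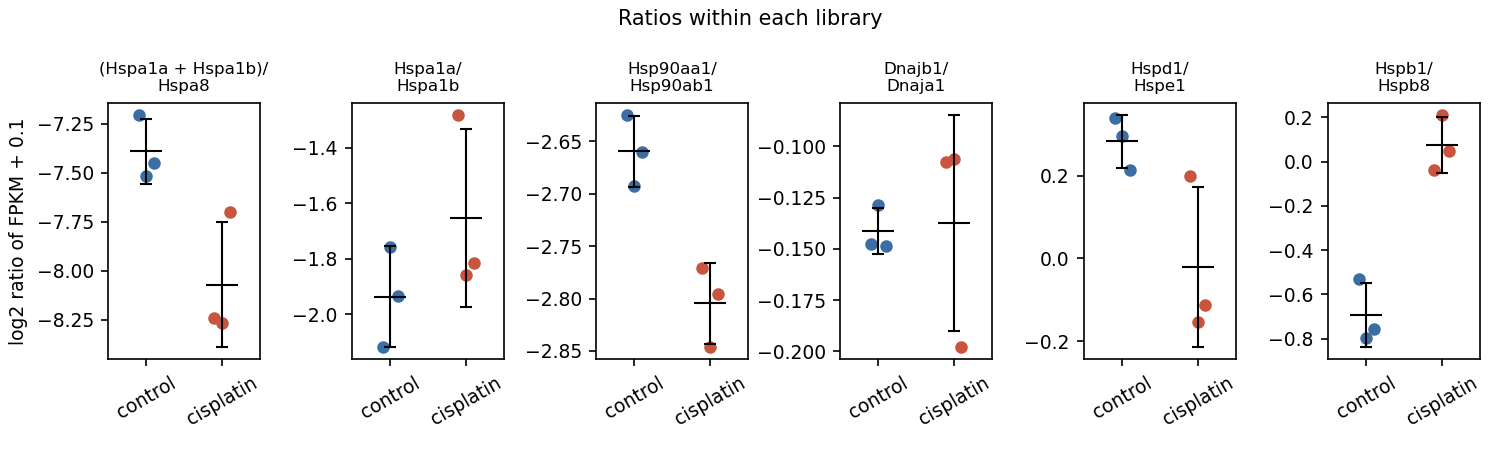
Log2 ratios of FPKM + 0.1 within each library for 6 pairs, with control libraries in blue, cisplatin libraries in red, and means with SD in black. Each panel has its own vertical scale. The groups are apart for 4 pairs and overlap for *Hspa1a*/*Hspa1b* and *Dnajb1*/*Dnaja1*.

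*Hsph1* (HSP110), an exchange factor and holdase for HSP70, was higher with cisplatin on the FPKM as deposited, though not after centring on the T-cell markers. It had 5.85, 6.20 and 5.76 FPKM in the control and 8.50, 8.37 and 8.76 FPKM in the cisplatin libraries. All cisplatin libraries lay above all control libraries. Group means (SD, n = 3) were 5.94 ± 0.229 FPKM in the control and 8.54 ± 0.199 FPKM in the cisplatin libraries, with a log2 fold change of 0.52 ± 0.05 (SE, limma adjusted p = 1.8e-04) that was -0.04 after centring on the T-cell markers (limma adjusted p = 0.58).

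The mitochondrial chaperonin genes both rose on the FPKM as deposited but not after centring on the T-cell markers. *Hspe1* had 48.3, 53.6 and 53.3 FPKM in the control and 66.1, 77.0 and 75.8 FPKM in the cisplatin libraries. The groups lay apart. The mean (SD, n = 3) was 51.7 ± 2.97 FPKM in the control and 73.0 ± 5.96 FPKM in the cisplatin libraries, with a log2 fold change of 0.49 ± 0.07 (SE, limma adjusted p = 0.0011). *Hspd1* had 61.1, 65.8 and 61.8 FPKM in the control and 76.0, 69.3 and 70.1 FPKM in the cisplatin libraries. Its groups did not overlap, but the gap was narrow. The mean (SD, n = 3) was 62.9 ± 2.55 FPKM in the control and 71.8 ± 3.67 FPKM in the cisplatin libraries, with a log2 fold change of 0.19 ± 0.05 (SE, limma adjusted p = 0.014). After centring on the T-cell markers, the log2 fold changes were -0.06 for *Hspe1* (limma adjusted p = 0.39) and -0.37 for *Hspd1* (limma adjusted p = 7.1e-04). The 18 T-cell markers themselves passed as higher, 18 of 18, with a median log2 fold change of 0.55 and a range from 0.19 to 0.89, and their part in the rises of *Hsph1*, *Hspe1* and *Hspd1* was not tested. The centring moved the median of all tested genes from 0.03 to -0.53. Relative to that median the log2 differences were 0.49 for *Hsph1*, 0.47 for *Hspe1* and 0.16 for *Hspd1* on both scales. They are equal by construction, since the centring lowers every gene alike.

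The balance of the chaperonin pair was compared within each library. The log2 ratio of *Hspd1* to *Hspe1* was 0.34, 0.30 and 0.21 in the control and 0.20, -0.15 and -0.11 in the cisplatin libraries. The means were 0.28 ± 0.0639 and -0.02 ± 0.193 (SD, n = 3 each), a difference of -0.30 without overlap (two-sided exact permutation test, p = 0.1, adjusted p = 0.15). Cisplatin replicate 1 lay close to the lowest control library, while the remaining cisplatin libraries were lower. The gene models overlap by 112 bases on opposite strands, and 26.9% of the 100-base windows of *Hspd1* also occur in other annotated transcripts, mostly in the pseudogene *Hspd1-ps3*.

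**Figure D3:**
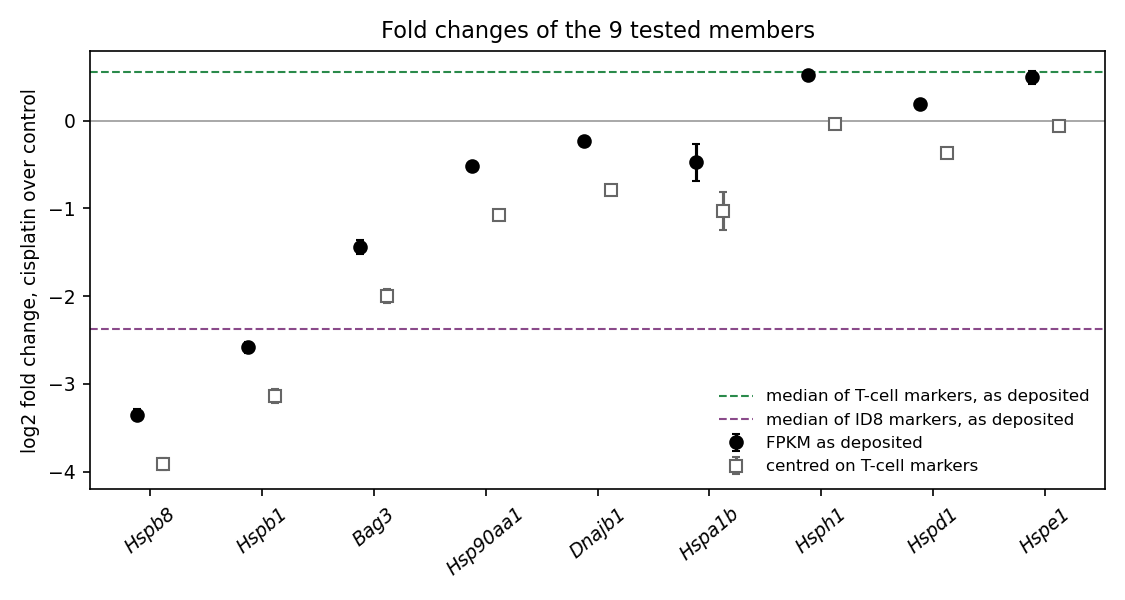
Log2 fold change, cisplatin over control, with standard error for the 9 tested members, on FPKM as deposited (filled) and after centring each library on the T-cell markers (open). Dashed lines are the medians of the T-cell markers (0.55) and of the ID8 markers (-2.37) as deposited, so they compare with the filled points only. The filled points of *Hsph1* and *Hspe1* lie near the T-cell line, and that of *Hspb1* near the ID8 line.

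The order of the levels changed with the condition. In the control libraries *Hsp90aa1* came first, followed by *Hspb8*, *Hspd1*, *Hspe1*, *Hspb1*, *Dnajb1*, *Bag3*, *Hsph1*, *Hspa1b* and *Hspa1a*, and among neighbours only *Hspb8* and *Hspd1* overlapped. In the cisplatin libraries *Hsp90aa1* was followed by *Hspe1*, *Hspd1*, *Dnajb1*, *Hsph1*, *Hspb1*, *Hspb8*, *Bag3*, *Hspa1b* and *Hspa1a*. There *Hspe1* overlapped *Hspd1*, *Hspb1* overlapped *Hspb8*, and *Hspb8* overlapped *Bag3*. The summed level of the 10 members was 391 ± 6.12 FPKM in the control and 278 ± 3.84 FPKM in the cisplatin libraries (SD, n = 3 each). *Hspb8* and *Hspb1* made up 17.0% and 10.5% of this sum in the control and 2.32% and 2.43% in the cisplatin libraries. The shares of *Hspd1* and *Hspe1* were 16.1% and 13.2% in the control and 25.8% and 26.3% in the cisplatin libraries, and that of *Hsp90aa1* was 31.5% and 31.0%.

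Outside the 10 members, 86 further chaperone genes were listed by family, of which 76 reached the minimum level. By limma 30 of these (39.5%) passed as lower and 22 (28.9%) as higher, beside 29.0% and 27.5% of all tested genes. The share called lower, 10 genes or 13.2%, was near the 12.8% of all tested genes, and 0 were called higher, beside 4.11% of all. At an unadjusted p-value under 0.05 there were also 0 at least 2-fold higher by limma, a threshold at which all genes were not counted. Voom on rebuilt reads called 0 of the chaperone genes higher, beside 1127 of the 18541 genes in that fit. Their median log2 fold change was -0.07. After centring on the T-cell markers, which lowers all genes alike, 66 (86.8%) passed as lower and 0 as higher by limma, beside 65.1% and 5.02% of all tested genes. By family, the share passing as lower ran from 25.0% of the heat shock factors to 54.5% of the mitochondrial genes. Each family holds few genes, and no test compared a family with other genes.

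Of 4 tested small heat shock proteins and associated genes other than the members, 2 passed as lower and 0 as higher. *Cryab* (alpha-B crystallin), a small heat shock protein of muscle, lens and epithelia, fell from 17.3 ± 0.366 to 5.26 ± 1.18 FPKM (mean ± SD, n = 3), with a log2 fold change of -1.72 (limma adjusted p = 1.3e-04). *Hspb6* fell with a log2 fold change of -1.15 (limma adjusted p = 5.3e-05). The others, named after their values were seen, did not pass, with log2 fold changes of -0.19 for *Hspb11* (limma adjusted p = 0.088) and 0.29 for *Hspbap1* (limma adjusted p = 0.16).

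In the HSP70 family with its exchange factors, 7 of 14 tested genes passed as lower and 3 as higher. *Hspa12a*, a distant HSP70 relative, fell from 16.9 ± 0.482 to 2.69 ± 0.288 FPKM (mean ± SD, n = 3), with a log2 fold change of -2.61 (limma adjusted p = 8.2e-07). *Bag2*, an inhibitor of the ubiquitin ligase CHIP, fell with a log2 fold change of -1.71 (limma adjusted p = 1.4e-05). In the HSP40 family 5 of 16 passed as lower and 5 as higher, from *Dnajb4* (log2 fold change -1.22) to *Dnaja4* (log2 fold change 0.84, and 0.29 after the centring, which did not pass).

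In the HSP90 system 5 of 13 tested genes passed as lower and 6 as higher. *Fkbp5*, an HSP90-bound immunophilin and a target of the glucocorticoid receptor, fell from 23.4 ± 0.578 to 9.79 ± 0.358 FPKM (mean ± SD, n = 3), with a log2 fold change of -1.25 (limma adjusted p = 1.2e-06). *Stip1* (HOP), which bridges HSP70 and HSP90, had a log2 fold change of -0.52 (limma adjusted p = 1.8e-05), the same size as that of *Hsp90aa1*.

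Of the other mitochondrial chaperones and proteases, 6 of 11 passed as lower and 3 as higher. *Lonp1*, the protease of the mitochondrial matrix, fell from 74.3 ± 1.53 to 29.9 ± 1.21 FPKM (mean ± SD, n = 3), with a log2 fold change of -1.31 (limma adjusted p = 6.6e-07). *Grpel2*, an exchange factor of mitochondrial HSP70, rose with a log2 fold change of 0.48 (limma adjusted p = 5.7e-04), which was -0.08 after the centring. The TRiC chaperonin and prefoldin genes, which fold actin and tubulin in the cytosol, had 4 of 14 (28.6%) passing as lower and 4 as higher, close to the shares of all tested genes, with the largest differences for *Pfdn1* (log2 fold change -0.39) and *Tcp1* (log2 fold change -0.27).

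Among the heat shock factors, *Hsf1*, the main activator of heat shock genes, had 5.96 ± 0.323 FPKM in the control and 7.29 ± 0.160 FPKM in the cisplatin libraries (mean ± SD, n = 3), with a log2 fold change of 0.29 (limma adjusted p = 0.0052) that was -0.27 after the centring. *Hsf2* had 2.22 ± 0.167 and 2.10 ± 0.0767 FPKM (SD, n = 3 each), and its groups overlapped (log2 fold change -0.08, limma adjusted p = 0.54). *Hsf4* fell from 3.41 ± 0.734 to 1.62 ± 0.566 FPKM (SD, n = 3 each; log2 fold change -1.07, limma adjusted p = 0.019). These are transcript levels, and HSF1 is regulated mainly as a protein.

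**Figure D4:**
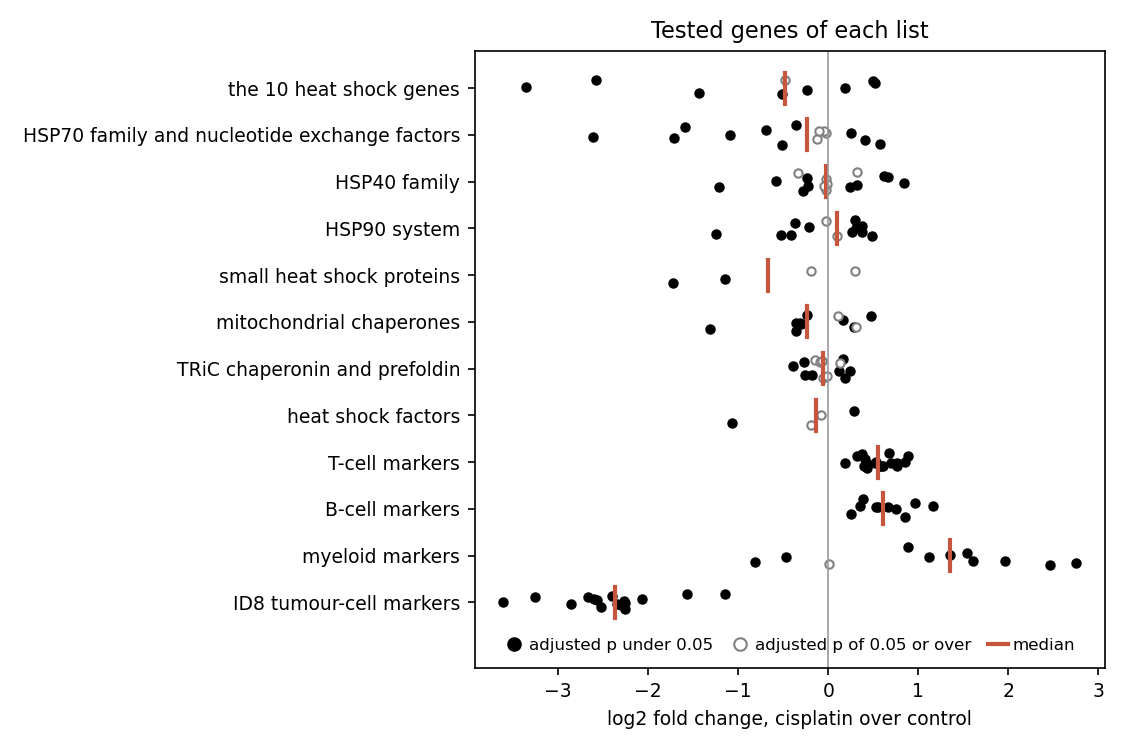
Log2 fold change (cisplatin over control) of every tested gene in each list, filled where the adjusted p-value was under 0.05, with the median of the list in red. The 10 heat shock genes (9 tested) run from -3.35 to 0.52, the ID8 markers lie between -3.61 and -1.15, and the T-cell markers between 0.19 and 0.89.

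Genes of most similar pattern were found by the root mean square distance of centred log2(FPKM + 0.1) over the 6 libraries, among the 8422 genes of at least 5 FPKM. The 5 nearest to *Hspd1* were *Hdac10*, *Ncoa1*, *Eloa*, *Psme2* and *Paxip1*, at distances of 0.019 to 0.030 on the log2 scale. The 5 nearest to *Hspa1b* were *Gm10297* at 0.059 and *Bet1*, *Spry2*, *Sos1* and *Atf7* at 0.15 each. *Hspa1b* itself averaged only 1.87 FPKM in the control and 1.34 FPKM in the cisplatin libraries. Its groups overlapped and it did not pass, so its pattern is uncertain. *Hspb8* was added after its values were seen. Its nearest genes were *F11r*, *Mmp11*, *Kank2*, *Tspan15* and *Bcam*, with log2 fold changes of -3.47 to -3.29 and distances of 0.051 to 0.080. The cells that these transcripts came from were not tested.

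In GRCm38 (mm10) the small heat shock protein genes *Hspb8* (ENSMUSG00000041548) and *Hspb1* (ENSMUSG00000004951) lie at chr5:116408491-116422864 on the minus and chr5:135887919-135889563 on the plus strand. *Bag3* (ENSMUSG00000030847) lies at chr7:128523616-128546981 on the plus strand, *Hsp90aa1* (ENSMUSG00000021270) at chr12:110690605-110702728 on the minus strand and *Dnajb1* (ENSMUSG00000005483) at chr8:83608193-83612653 on the plus strand. *Hspa1a* (ENSMUSG00000091971) and *Hspa1b* (ENSMUSG00000090877) are neighbours on the minus strand, at chr17:34969190-34972156 and chr17:34956436-34959238. *Hsph1* (ENSMUSG00000029657) lies at chr5:149614287-149636376 on the minus strand. *Hspd1* (ENSMUSG00000025980) at chr1:55077835-55088243 on the minus strand meets *Hspe1* (ENSMUSG00000073676) at chr1:55088132-55091307 on the plus strand. Values are per gene, so single exons and UTRs are not told apart.

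The certainty of the values differs between members. No 100-base window of the longest *Hspb8*, *Bag3*, *Dnajb1* and *Hsph1* transcripts occurs in another annotated gene, and for *Hspe1* 0.347% did. For *Hsp90aa1* and *Hspb1* the shares were 47.5% and 42.7%, mostly with *Gm12346* and the pseudogene *Hsp25-ps1*, so reads of these genes may be split. *Bag3* overlaps *2610306O10Rik* on the same strand over 612 bases, and this gene averaged 0.458 FPKM. The gene models of *Hspb8* and *Hspb1* overlap no other annotated gene.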

How the data were processed

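RNA was sequenced from 6 T-cell libraries, grouped by the treatment label. The authors deposited FPKM values per gene, that is, counts divided by gene length and library size. The sources differ on how they were made. The study's methods name LifeScope for alignment and counting, while the submitters' processing notes list fastp, HISAT2 2.0.5, featureCounts 1.5.0-p3 and mm10. Strand setting and treatment of reads that match several genes are not given in the sources used here. Median-of-ratios factors between the deposited libraries were 1 in all 6, so this scaling was already in the values. Gene coordinates equalled those of GENCODE M21 (GRCm38) for all 10 members.

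FPKM times gene length was a whole multiple of 1 step (within 0.1 read) for 100% of values above 0, and reads were rebuilt from it. The authors' denominators were 1.03 to 1.05 times these reads in the cisplatin libraries. In the control libraries they were 0.976 to 0.982 times these reads, so the deposited scaling lowers cisplatin values relative to scaling by reads. The test was limma 3.58.1 (R 4.3.3; lmFit, eBayes with trend) on log2(FPKM + 0.1), for genes averaging 0.5 FPKM or more over the 6 libraries. The study tested counts with DESeq2, and counts were not used here as the main unit. Ratios within libraries were tested by exact permutation (scipy 1.17.1). Alternatives were pseudocounts of 1 and 0.01, no minimum or one of 5 FPKM, other scalings, no trend, voom on rebuilt reads (at least 10 in 3 libraries; 2423 genes called lower and 1127 higher), leaving out each library, and a replicate block. Scaling by rebuilt reads was added after the data were seen. It gave log2 fold changes of -0.15 for *Dnajb1* and 0.27 for *Hspd1*, beside -0.23 and 0.19 as deposited. All 10 members are named. Of the other chaperone lists, the 2 passing genes with the largest fold change in each list, the partners in ratios, *Hsf1* and *Hsf2* are named. The members and lists were chosen with earlier results of these data known. The table held 0 columns of other samples.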

Additional observations from a re-analysis of the deposited data

How the results depend on the processing

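The directions of *Hspb8*, *Hspb1*, *Bag3*, *Hsp90aa1* and *Dnajb1* and their adjusted p-values under 0.05 from limma held in all 17 alternatives. Not all of these could have differed. Median-of-ratios scaling had factors of 1 and repeated the main values, and the centring on T-cell markers could not reverse a fall. Centring on the T-cell markers reversed *Hsph1* (-0.038), *Hspd1* (-0.37) and *Hspe1* (-0.062), gave 0 members passing as higher and 5 called lower, and among other chaperone genes 66 passing as lower and 0 as higher, where of all tested genes 65.1% passed as lower, 5.02% as higher and 22.8% were called lower. By construction it lowers every gene alike. Other chaperone genes called lower were 6 with a pseudocount of 1 and 5 with a minimum of 5 FPKM, which tests fewer genes. In these fits 1451 of 15874 and 903 of 8422 genes in all were called lower, beside 2034 of 15874 with the main settings. Quantile normalization called 1 other chaperone gene higher, beside 979 of 15874 genes in all. By construction, a pseudocount of 1 shrinks the fold changes of low genes more than the 0.1 of the main fit. The cause was not tested for quantile normalization. Leaving out single libraries gave -0.0114 to 0.0345 for the difference in log2 ratio of *Dnajb1* to *Dnaja1*, and 0.10 to 0.39 for *Hspa1a* to *Hspa1b*, lowest without cisplatin replicate 1.

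Of all tested genes 2687 were called, 75.7% of them lower. These were 1762 with a pseudocount of 1 and 1145 with the minimum of 5 FPKM. Of the calls, 96.1% were lower after the centring and 64.6% after quantile normalization.

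Same-numbered libraries did not deviate together (correlations of -0.063 to 0.023), and not every library was most like its own number. The labels do not tell whether the numbers mark pairs, and correlations near 0 cannot exclude it. With the replicate block the ratios had p = 0.25 or more by an exact sign-flip test, the smallest that 3 pairs allow, 2662 genes were called, and the members again had 5 passing as lower, 3 as higher and 3 called lower. *Hspa1a* had only 25 to 41 reads in each library, and the part of reads shared with *Hspa1b* in this low count was not tested.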
